A study of Schizosaccharomyces pombe with 3 samples.

Results

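The genes described here encode subunits of SAGA, TFIID and Mediator, the coactivator complexes that stand between DNA-bound regulators and RNA polymerase II. Genes named spt3, taf3, med13, med15, srb8, srb10 and pmc1 were looked up by name, and srb8 by its protein match, which gave 7 of the 444 genes in the deposited tables. One of the 7 carries the right name but is a different gene. The row named pmc1 is described in the files as a vacuolar calcium transporting ATPase (SPAPB2B4.04c). The Mediator subunit once called Pmc1 is med14 in the assembly ASM294v3, where pmc1 is listed as an older name of med14. No row in the tables was matched to med14 by name. The subunit genes are therefore 6, and the calcium pump gene is given apart from them.

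The samples were wild type Schizosaccharomyces pombe, strain 972 h-, grown to mid-log phase in Synthetic Dextrose (SD) medium with 3% (T1), 5% (T2) or 8% (T3) glucose. The cells for all media came from a single colony of 1 strain, and glucose was present from the start of growth. There was 1 library per concentration, made from 3 pooled replicates that the sources do not describe further, so a difference between libraries has no replicate check and no test between conditions could be made. A line fitted to the ratio of count to FPKM against gene length implied totals of 5744823 (T1), 5887736 (T2) and 5818834 (T3) fragments. These are the totals behind the FPKM values and not the sequencing depth that the study reports. Every fold below is a ratio of FPKM values (fragments counted per length of transcript and size of library). Its 95% interval (exact Clopper-Pearson, from the counts of the pair) takes in counting error alone, and variation from culture to culture is outside it. Of the genes fixed as markers of the M mating type of an h- strain, 3 of 9 have rows. Matched by name, none of the 7 markers of the P type has one. A row marks a difference between libraries, so a missing row does not show whether a marker was expressed, and the mating type was not tested. Among the 3, mam2 was measured at 76.3 and 211 FPKM in T1 and T3, and mam3 at 31.5 (T1), 55.0 (T2) and 159 (T3) FPKM. The mating-type M entry, named mat3-Mc here, had 163.9 (T1), 0.41 (T2) and 0 (T3) FPKM. The study reports a lower T2 level under the name mat1-Mc, so which copy this entry stands for is uncertain.

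SAGA is a large complex that acetylates and deubiquitinates histones and brings the TATA-binding protein to promoters. TFIID consists of the TATA-binding protein and its associated factors (TAFs) and recognises core promoters. Mediator relays signals from activators to the polymerase through its tail, middle and head, and a separable kinase module with Cdk8, cyclin C, Med12 and Med13 can attach to it and hold back or tune its contact with the polymerase. The SAGA and TFIID complexes share several TAFs. SAGA is known in fission yeast for its part in the choice between proliferation and sexual differentiation when nutrients run low.

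Every row of the tables is a gene at least 2-fold apart between the libraries compared, so a subunit without a row has no level in that table. For T3 against T1 and for T2 against T1 the tables hold more genes than the study counts as changed, and the shares below are of genes with a row. Rows were present for 6 of 51 subunit genes of the 3 complexes in the comparison of T3 with T1, and all 6 were higher in T3. That is 11.8% of the 51. The genes listed as higher came to 4.59% of the 5124 protein-coding genes of ASM294v3, and those listed as lower to 2.58%. Here and below, such shares divide all listed rows by that number, including rows not matched to the assembly. Among the 383 genes with a value in both libraries 61.4% were at least 2-fold higher in T3. The members and lists were picked with earlier results of these data known, 3 of the 6 were singled out by the study on the same libraries, and the counts are a description. The subunits with rows came from SAGA (1 of 20), TFIID (1 of 16), the Mediator core (1 of 17) and the Cdk8 module (3 of 4). For the first 3 groups that is 5%, 6.25% and 5.88%, near the 4.59% of all protein-coding genes. At least 4-fold differences were reached by spt3, taf3 and med13, 3 of the 6. Of the 383 genes 38 (9.92%) were at least 4-fold higher, all of them among the 235 listed as higher. The 3 are the genes that the study singled out from the same libraries. The fold changes it gives for them match the log2 ratios here, so their number among the 6 was fixed by that choice and nothing is read from it. The lower ends of all 3 intervals lay below 4-fold, and med13 stood at the limit (4.01-fold, 2.94 to 5.56) and fell below it with a pseudocount of 1 FPKM (log2 ratio 1.65). The median log2 ratio (T3 over T1) was 1.77 over the 6 subunit genes and 1.36 over all 235 genes listed as higher.

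**Figure D1:**
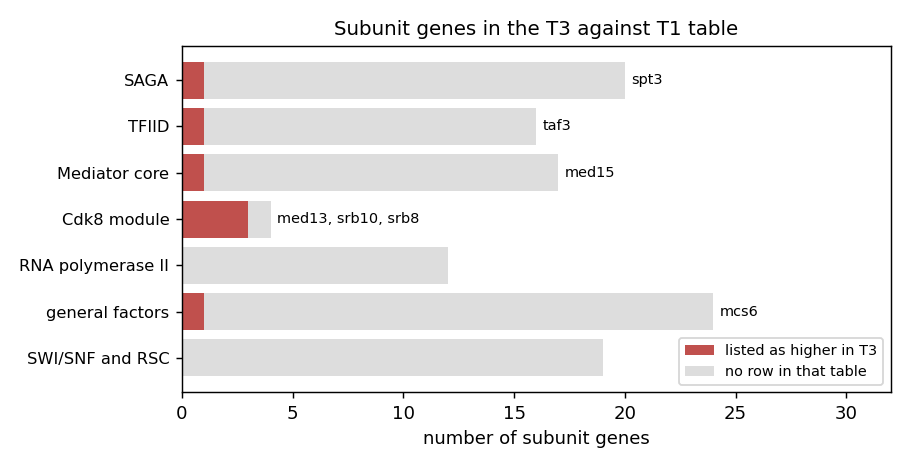
Number of genes of each complex (bar length) in lists of subunits, with those listed as higher in T3 (8% glucose) than in T1 (3% glucose) in red and those without a row in that table in grey. The Cdk8 module had rows for 3 of 4 genes, whereas SAGA, TFIID and the Mediator core had 1 each and no RNA polymerase II subunit had any. Rows were matched by name, and for srb8 by its protein match.

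The SAGA subunit gene spt3 (SPCC61.02) encodes a histone-fold protein that contacts the TATA-binding protein. Its counts were 41 (T1), 122 (T2) and 229 (T3), or 4.06, 11.7 and 22.28 FPKM. The 3 levels followed the order of glucose, and none of the counting intervals of the 3 levels overlapped (2.91 to 5.51, 9.72 to 14.0 and 19.5 to 25.4 FPKM). Of its log2 rise from T1 to T3, 62.2% lay in the step from 3% to 5% glucose. The second step was 1.90-fold (95% interval 1.52 to 2.39), just under the 2-fold limit of the tables, and was not listed there. The whole rise of 5.49-fold (3.92 to 7.85) placed spt3 at rank 18 of the 235 genes listed as higher in T3 than in T1. Matched by name, none of the SAGA genes gcn5, ada2, spt7, spt8, spt20 and tra1 has a row in any of the 3 tables.

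The study raised a possible link between spt3 and the Tf2 retrotransposons, because SPT3 of budding yeast is needed for transcription of the Ty1 element. Summed over the 5 Tf2 entries with values in all libraries the counts were 30.8 (T1), 804 (T2) and 2308 (T3). Several of these entries share reads, so the sum depends on how reads were divided among copies. Including Tf2-7, which has no T2 value, the sums were 858 in T1 and 4265 in T3. Only entries listed as different between libraries have values, so the sums were selected for change and leave out Tf2 copies without a row. With 1 library per concentration no relation between spt3 and Tf2 could be tested.

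The TFIID subunit gene taf3 (SPAC823.06) was the least counted of the 6. It had 7 counts (2.53 FPKM) in T1 and 39 counts (13.65 FPKM) in T3, and no T2 value. The ratio was 5.40-fold, next to spt3 at rank 19, but its interval ran from 2.39 to 14.3. The 2 levels did not overlap within counting error (1.02 to 5.21 and 9.71 to 18.7 FPKM). The other 15 genes of the TFIID list, the TATA-binding protein gene tbp1 among them, have no row matched by name in any table.

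**Figure D2:**
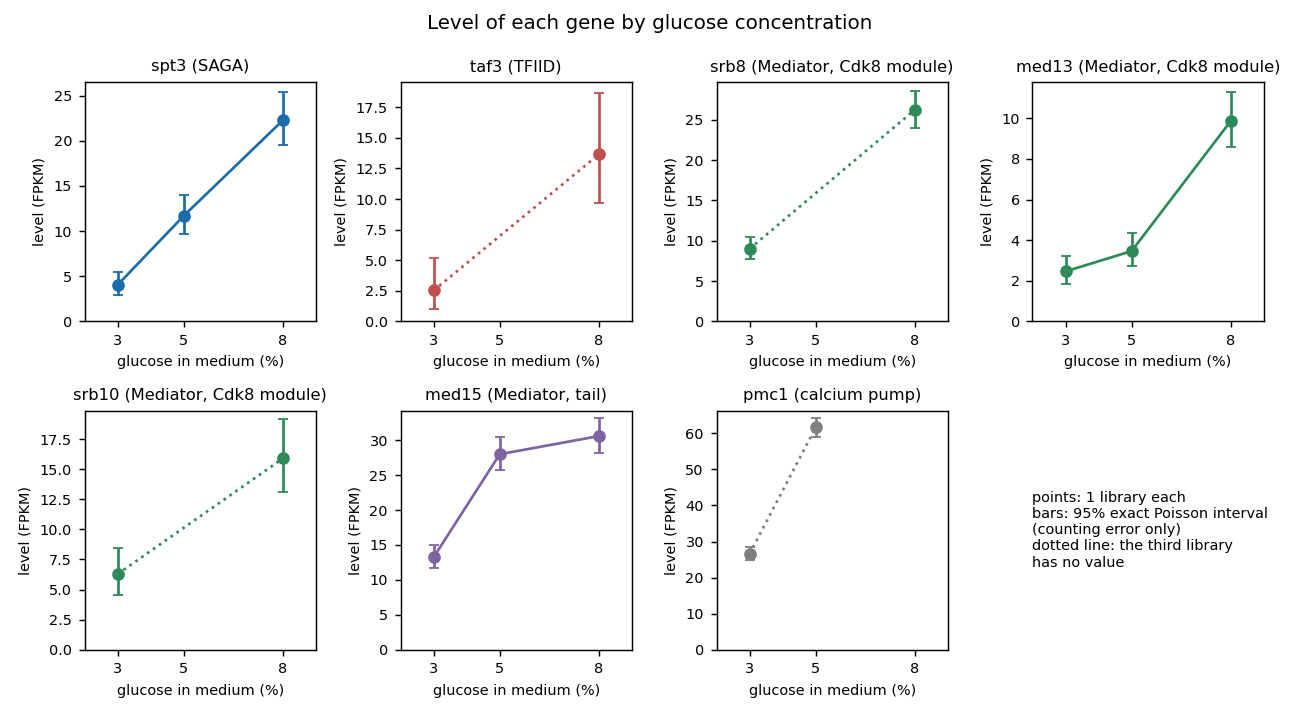
Level in FPKM (vertical axis, starting at 0) against glucose in the medium in percent (horizontal axis) for the 6 subunit genes and pmc1, with 1 library per point and 95% exact Poisson intervals as bars. The level of spt3 was higher at each step, that of med13 differed mainly between 5% and 8%, and that of med15 mainly between 3% and 5%.

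Of the 4 genes of the Cdk8 module, srb8, med13 and srb10 stood higher in T3 than in T1. No row was matched by name to srb11, which encodes the cyclin partner of Srb10. The gene srb8 encodes Med12, which links the kinase to the rest of the module. It had 173 counts (9.01 FPKM) in T1 and 512 counts (26.24 FPKM) in T3, a ratio of 2.91 (2.45 to 3.48). The kinase gene srb10 (SPAC23H4.17c), the fission yeast Cdk8, had 43 counts (6.29 FPKM) in T1 and 111 counts (15.9 FPKM) in T3. Its ratio was 2.53 (1.76 to 3.68), at rank 121 of 235, and the lower end of that interval lay below 2-fold. Neither gene has a T2 value, so the step at which they differed is not known.

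The third gene of the module, med13 (SPAC589.02c, called Srb9 in the files), encodes the subunit that tethers the module to core Mediator. Its counts were 51 (T1), 74 (T2) and 208 (T3), or 2.46, 3.46 and 9.86 FPKM. T1 and T2 overlapped within counting error (1.83 to 3.23 and 2.72 to 4.34 FPKM), and T3 lay above both (8.57 to 11.3 FPKM). The first step held 24.6% of the log2 rise. From 5% to 8% glucose med13 was 2.85-fold higher (2.18 to 3.77), at rank 20 of the 80 genes listed as higher in T3 than in T2. Of the 51 subunit genes med13 alone was listed in that comparison (1.96%), beside 1.56% of all protein-coding genes listed as higher. Among the 217 genes with values in T2 and T3, 37.3% were at least 2-fold higher in T3.

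Within the module, levels per length kept their order between the 2 libraries, with med13 lowest and srb8 highest. The srb8 level was 3.66 times that of med13 in T1 (2.67 to 5.11) and 2.66 times in T3 (2.26 to 3.14). For srb10 the level was 2.56 times that of med13 in T1 (1.66 to 3.91) and 1.61 times in T3 (1.27 to 2.04). Both ratios to med13 were smaller in T3. The intervals of the 2 libraries overlapped in each case, but overlap is no test of a difference. A shift of the proportions within the module was not tested.

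The gene med15 (SPBC146.01) belongs to the Mediator tail, the part that activators bind, and corresponds to Gal11 of budding yeast. It was the most abundant of the 6 subunit genes in T1 and T3, and of the 3 with a value in T2, with 250 (T1), 544 (T2) and 587 (T3) counts. The levels were 13.24, 27.99 and 30.59 FPKM. T2 and T3 overlapped within counting error (25.7 to 30.4 and 28.2 to 33.2 FPKM), and T1 lay below both (11.6 to 15.0 FPKM). The rise from 3% to 5% glucose was 2.11-fold (1.82 to 2.47), which is 89.4% of the log2 rise to T3, and from 5% to 8% the ratio was 1.09 (0.971 to 1.23), an interval that includes no change. The ratio of T3 to T1 was 2.31 (1.99 to 2.69), at rank 153 of 235.

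The genes listed as higher in T2 than in T1 numbered 61, or 1.19% of protein-coding genes, and 2 of them, spt3 and med15, were among the 51 subunit genes (3.92%). Of the 198 genes with values in T1 and T2, 32.8% were at least 2-fold higher in T2. Against the 61, spt3 stood at rank 23 and med15 at rank 56. The comparisons of T2 with T1 and of T3 with T1 use the same T1 library, so the rises of spt3 and med15 in both rest in part on the same counts.

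**Figure D3:**
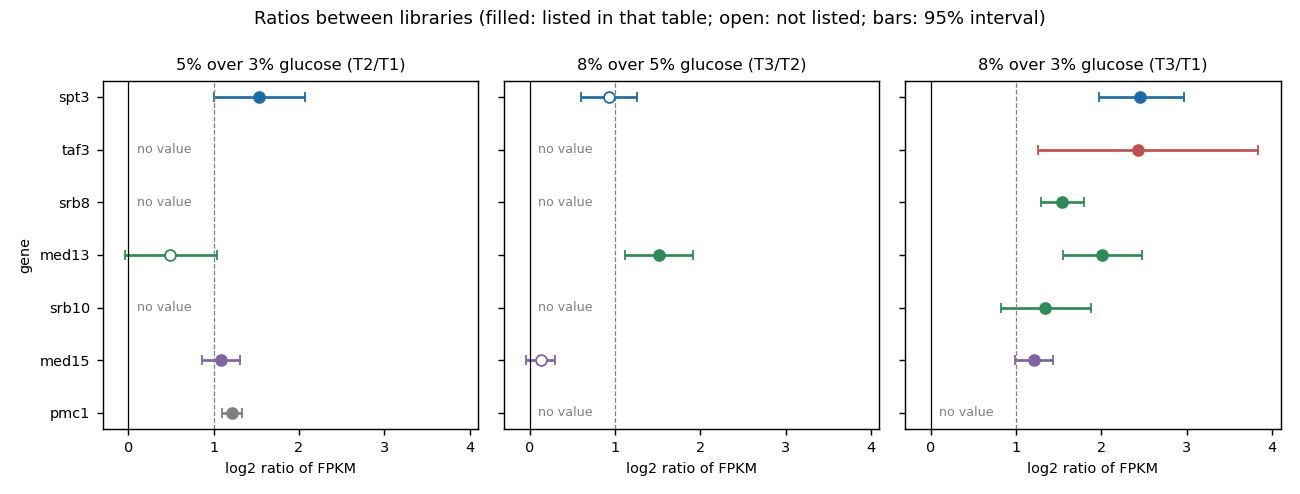
Log2 ratios of FPKM (horizontal axis) of each gene for the 3 pairs of libraries, with 95% Clopper-Pearson intervals as bars, filled points for genes listed in that table and open points for genes not listed. The dashed line marks 2-fold, and the intervals of srb10 and med15 for T3 over T1 reached below it.

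The calcium pump gene pmc1 had 868 counts (26.6 FPKM) in T1 and 2066 counts (61.64 FPKM) in T2, so that the T1 level was 0.432 times the T2 level (0.398 to 0.467), or T2 2.32-fold above T1. The intervals of the 2 levels did not overlap (24.9 to 28.4 and 59.0 to 64.4 FPKM). It has no T3 value and was listed in the comparison of T2 with T1 only, at rank 43 of 61. Pmc1 moves calcium into the vacuole and is no part of a transcription complex, so this row was left out of all counts of subunits.

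The 6 subunit genes were ordered by level in much the same way at both ends of the glucose range. In T1 the order from low to high was med13, taf3, spt3, srb10, srb8 and med15, with a 5.38-fold span from 2.46 to 13.24 FPKM. Neighbours from med13 up to srb10 in that order did not differ beyond counting error. In T3 the order was med13, taf3, srb10, spt3, srb8 and med15, with a 3.10-fold span, and only the neighbours med13 and taf3, and taf3 and srb10, did not differ beyond counting error. The position of spt3 was the one that changed, from below srb10 in T1 to above it in T3 (1.40 times, 1.11 to 1.77). In T2 only med13, spt3 and med15 have values, in that rising order.

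The larger ratios belonged to the scarcer genes. Across the 6 genes Spearman's correlation between T1 level and log2 ratio (T3 over T1) was -0.71, and across the 233 genes listed as higher with reads in T1 it was -0.48. The T1 level enters both quantities, and low genes may have needed a larger difference to be listed, though the filter is not stated. The correlations are therefore a description only, and genes are not independent replicates. The median T1 level was 5.18 FPKM over the 6 genes and 9.58 FPKM over all genes listed as higher, and in T3 the medians were 19.1 and 23.9 FPKM. Gene models ranged from 543 bases for taf3 to 3678 bases for med13, with a median of 2584.5 bases against 2018 bases over all listed as higher and 1315.5 bases over the 132 listed as lower. Between T1 and T2 the medians were 2048 bases for the genes higher in T2 and 582 bases for those lower. Between T2 and T3 the order was the other way, with 1899 bases for the genes higher in T3 and 2048 bases for those lower. The part of length in the results was not tested.

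**Figure D4:**
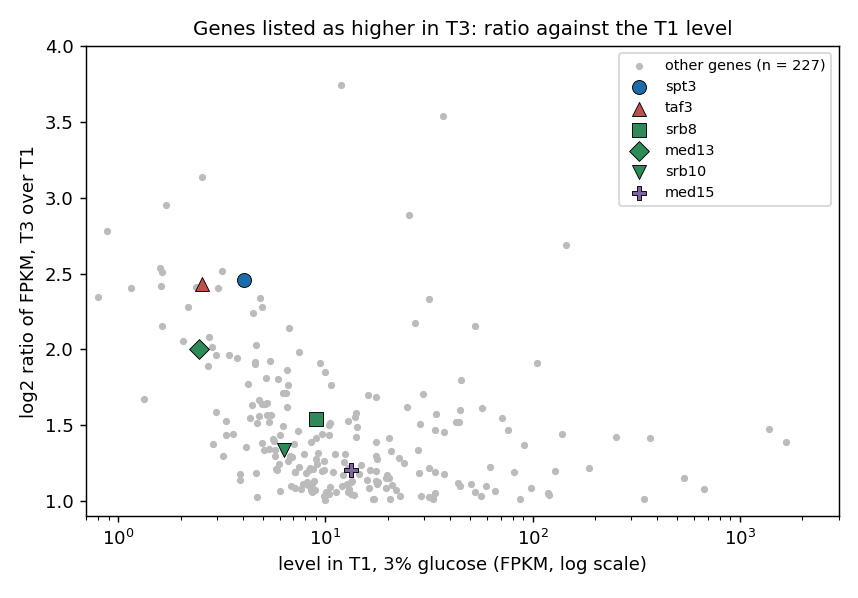
Log2 ratio of T3 to T1 (vertical axis) against the FPKM in T1 (horizontal axis, log scale) for the 6 subunit genes (large symbols) and 227 other genes listed as higher in T3 with reads in T1, of which 5 fall outside the axes. The subunit genes lie at T1 levels of 2.46 to 13.24 FPKM, and those with the lowest levels have the largest ratios.

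All counts of the 7 genes were whole numbers, so their reads were not divided with similar sequences. The methods describe no step that uses strand, and reads from an overlapping gene could be counted with these genes. In ASM294v3 taf3 overlaps no other annotated gene, and med13, srb8 and srb10 each overlap 2 noncoding RNAs on the other strand. For med15 there are 4 such noncoding RNAs, for spt3 there are 2 together with the coding gene nnr2 on the same strand, and for pmc1 there are 1 and the cyclin gene cig2 on the other strand. None of these overlapping genes has a row in the tables, nor, matched by name, has any coding gene directly beside the 7. The methods do not state whether noncoding RNAs were quantified, so their missing rows say nothing on their levels. The part of overlapping transcripts in the ratios was not tested.

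The genes closest to each subunit gene in the sizes of the 2 steps were found among the 172 other genes with reads in all libraries, by the distance between their log2 ratios of T2 to T1 and of T3 to T2. Closest to spt3 was gid2, which encodes a predicted ubiquitin ligase subunit, at a distance of 0.13 and with 4.92, 13.4 and 23.9 FPKM. Next came sfc4 at 0.42, SPBC17G9.12c at 0.47, pef1 at 0.50 and rpp1 at 0.51. Closest to med13 was apc15, of the anaphase-promoting complex, at 0.037 and with 2.96, 4.15 and 11.5 FPKM, followed by rib2 at 0.090, the kinetochore gene mis18 at 0.13, SPAPB24D3.07c at 0.15 and yhb1 at 0.17. Closest to med15 was the ubiquitin ligase gene pub3 at 0.085, with 20.7, 45.4 and 52.0 FPKM, then mil1 at 0.22, ubc12 at 0.23, clg1 at 0.26 and gef1 at 0.34. The likeness rests on 3 libraries and for some genes on few counts, such as 13 (T1), 19 (T2) and 52 (T3) for apc15. Counting error was not carried into the distances, so the order of the near genes is not settled. No gene appeared in the lists of 2 subunit genes.

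**Figure D5:**
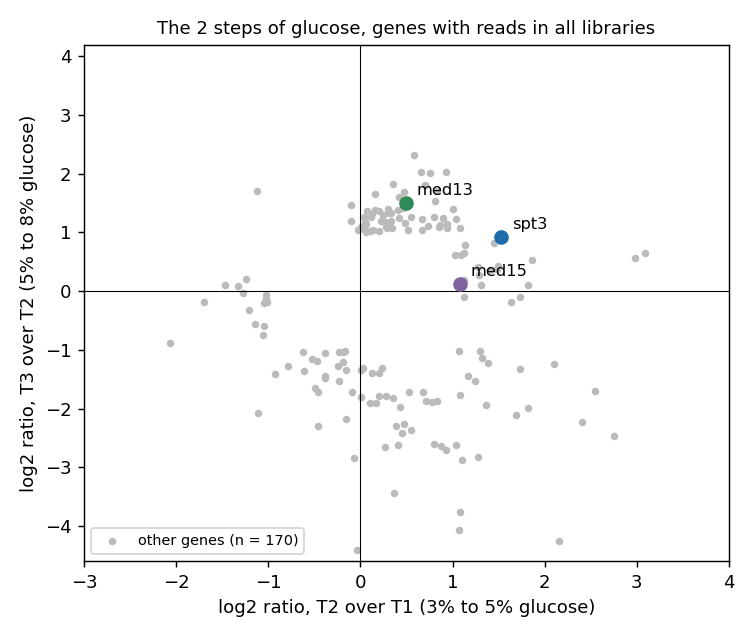
Log2 ratio of T3 to T2 (vertical axis) against log2 ratio of T2 to T1 (horizontal axis) for spt3, med13, med15 and 170 other genes with reads in all 3 libraries, of which 6 fall outside the axes. The 3 subunit genes lie apart, med13 high on the second step, med15 on the first and spt3 on both.

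For the subunit genes with a T1 and a T3 value only, likeness was counted and not named. Within 0.1 of their log2 ratio of T3 to T1 there were 7 genes for taf3, 33 for srb8 and 42 for srb10 among those with at least 10 counts in both libraries. The genes spt3, med13 and med15 all had T1 below T2 and T2 below T3, as did 79 of the 177 genes with values in all libraries (44.6%), but the second step of med15 and the first step of med13 were within counting error.

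Matched by name, none of the 12 RNA polymerase II subunit genes has a row in any table. The same holds for the 19 genes of the SWI/SNF and RSC remodelling complexes. Of 24 genes of general transcription and elongation factors only mcs6 has one (4.17%). Beside the 4.59% of protein-coding genes listed as higher in T3 than in T1, counts of 0 or 1 in lists of this length are not read as a difference from other genes. It encodes the kinase of TFIIH, which phosphorylates the polymerase and activates other cyclin-dependent kinases. It had 390 counts (56.7 FPKM) in T1 and 1217 counts (173 FPKM) in T3, and was 3.05-fold higher in T3 (2.72 to 3.43). It was therefore far more abundant than any subunit gene, at a ratio close to that of srb8.

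A list of 16 genes of activators and repressors was drawn up as genes taken to work with these complexes, a link not tested here. Of the 16, ssn6, sre1 and php3 have rows. In T3 over T1 that is 1 of 16 higher (6.25%, beside 4.59% of protein-coding genes) and 1 lower (beside 2.58%), in T2 over T1 it is 1 higher (beside 1.19%), and nothing is read from counts this small. The corepressor gene ssn6, whose protein acts with Tup11 and Tup12, went the other way from the subunit genes. It had 2130, 1913 and 924 counts in T1, T2 and T3, or 79.8, 69.7 and 34.1 FPKM, and its T3 level was 2.34-fold below T1 (2.17 to 2.53) and 2.04-fold below T2 (1.89 to 2.21). Of the protein-coding genes, 1.97% were listed as lower in T3 than in T2. The sterol response factor gene sre1 had 52.5 FPKM in T1 and 109 FPKM in T3, a ratio of 2.09 (1.93 to 2.25). The CCAAT-binding subunit gene php3 had 63.2 FPKM in T1 and 131 FPKM in T2, a ratio of 2.07 (1.63 to 2.63).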

How the data were processed

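Libraries of polyadenylated RNA were sequenced in pairs of reads on Illumina HiSeq. By the methods of the study, the deposited expected counts and FPKM values were obtained by the authors with RSEM 1.2.25, after filtering in SOAPnuke 1.5.6 and alignment with BWA 0.7.12 and Bowtie 1.1.2, to a build not given in the sources used here. Genes were screened by the authors with a Poisson method and NOIseq 2.14.1, though 2 of the tables hold more genes than the study counts as changed and the filter behind them is not stated. The deposited columns of log2 ratios, p-values and FDR were not used. The first sheets of 3 workbooks were joined by gene identifier, 0.001 FPKM at 0 counts was read as 0, and zeros were set to a floor of 3 counts for ratios. Of 444 identifiers, 387 matched ASM294v3 by accession, 28 were named by description and 29 remained unnamed, srb8 among them. Most accessions had another version, so positions in ASM294v3 served only to find overlapping and neighbouring genes, no coordinates are given, and the planned motif search was not run. The members and lists were chosen with earlier results of these data known. Named are the 7 genes, list members with a row, the 5 nearest genes by log2 steps, and Tf2. For SAGA the list name ada1 was read as hfi1, and for Mediator pmc1 as med14. Calculations used Python 3.11.15, numpy 2.4.6, pandas 2.3.3, scipy 1.17.1 and matplotlib 3.10.9. The code for the intervals was run on simulated Poisson counts, which hold no variation between cultures, so the run says nothing on that source of error.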

Additional observations from a re-analysis of the deposited data

How the results depend on the processing

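No paired analysis was possible because there is 1 library per concentration, and for the same reason no library could be left out. A pseudocount of 1 FPKM, counts scaled by implied fragments and unscaled counts kept every log2 ratio of the 7 genes inside its 95% interval (39 values). The pseudocount moved them by -0.38 to -0.0042 and the scalings by at most 0.046. With a 4-fold limit, the subunit genes higher over T1 in T3 numbered 3 instead of 6, those higher over T1 in T2 numbered 0 instead of 2, and those higher over T2 in T3 numbered 0 instead of 1. When the lower end of the interval had to pass 2-fold, 1 gene, spt3, remained for T2 over T1, and 4 remained for T3 over T1, without srb10 and med15. With at least 10 FPKM in the higher library, 0 genes were left as higher in T3 over T2, since med13 reached 9.86 FPKM. With at least 10 counts in both libraries taf3 dropped out, and 5 remained for T3 over T1. Counts of subunit genes under the other settings stayed within 1.5 times. The low counts of taf3, srb10 and med13 in T1 limit how precisely their ratios are known.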
